A study of Homo sapiens with 6 samples.

Results

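The 10 genes described here encode the enzymes and the transporter that make, recycle and break down glutathione: GCLC, GCLM, GSS, GSR, SLC7A11, GGT1, CHAC1, CHAC2, GGCT and OPLAH. They were chosen by symbol for their roles, with earlier results of these data known. They were matched by Ensembl identifier to the deposited table of 61541 genes, which contained 10 of 10. The cells sequenced were luciferases-expressing HepG2 cells, a human hepatoblastoma line engineered to carry a red-emitting luciferase (SLR3) under antioxidant response elements (ARE) and a green-emitting luciferase (ELuc) as internal control, and control cells carried the same reporters. Sedanolide, a phthalide of celery seed oil, was given at 100 μM for 24 h in 3 libraries, and 3 libraries of control cells were compared with them. The sources used here do not say whether control cells received the vehicle, and replicate numbers are not tied to separate cultures, so that p-values measure the spread between these libraries, which may be technical.

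Glutathione is a tripeptide of glutamate, cysteine and glycine and the most abundant thiol of most cells, and the liver makes and exports it at a high rate. Glutamate cysteine ligase, a dimer of a catalytic subunit (GCLC) and a modifier subunit (GCLM), carries out the rate-limiting step, for which cystine imported by SLC7A11 supplies cysteine, and glutathione synthetase (GSS) adds glycine. Glutathione reductase (GSR) returns oxidized glutathione to the reduced form, whereas GGT1 at the cell surface and CHAC1 and CHAC2 in the cytosol cleave glutathione, and GGCT and OPLAH carry the γ-glutamyl group back to glutamate.

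Total expected counts were 16420258, 22940963 and 17553963 in control 1 to 3 and 19027265, 26714853 and 25066095 in sedanolide 1 to 3. Counts were normalized by TMM and are given as CPM, counts scaled to the library total, and 14104 rows passed a filter on low counts, including 9 of the 10 genes. A gene was called at a Benjamini-Hochberg false discovery rate (FDR) of 0.05 over all rows tested and a fold change of 1.5. The leading difference between libraries was not the treatment. In a principal component analysis, component 1 accounted for 56.1% of the variance, with control 1, control 2 and sedanolide 3 on side 1, and control 3, sedanolide 1 and sedanolide 2 on side 2. Mitochondrial genes took 1.43% to 2.15% of counts on side 1 and 4.23% to 5.22% on side 2. No label names a batch, and the sides come from the expression of these libraries. Each side held libraries of both conditions, so that fold changes are also given within each side and from a fit that includes the side. Hepatocyte markers were detected at 11 of 11, with summed levels of 31578 to 47566 CPM in control libraries and 23497 to 40389 CPM in sedanolide libraries. Of 10 markers of stromal, endothelial and immune cells, 6 had at most 3 counts in every library. Among these 6, COL1A2, DCN and VWF had 0 counts in all libraries. The sum of these 10 markers, mostly LYZ, was 836 to 1356 CPM in control libraries and 492 to 785 CPM in sedanolide libraries. edgeR called 0 of the 11 hepatocyte markers, although 10 had negative log2 fold changes, as did 6949 of 14104 rows. Of the 11, 3 were lower at an unadjusted p-value under 0.05 (6.57% of all rows, edgeR). For 4, all sedanolide libraries lay below all control libraries (9.66% of all rows). edgeR called 0 of the 4 other markers tested. DESeq2 and edgeR with a side term, which called 1.4% and 1.63% of all rows lower, called LYZ and PDGFRB lower. The part of these markers in the results was not tested. In bulk RNA, fewer cells of a kind and less RNA per cell cannot be told apart.

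Sedanolide-treated cells had more mRNA of both subunits of glutamate cysteine ligase, and these were the members of the 10 that passed both thresholds. GCLC rose 3.15-fold and GCLM rose 3.66-fold. The cystine transporter SLC7A11 had 2.28 times the control level, with no overlap between conditions, and narrowly missed the FDR threshold. The interval of the recycling enzyme GSR included 0, and GSS, GGT1, CHAC2, GGCT and OPLAH had log2 fold changes between -0.05 and 0.41 with overlapping libraries. CHAC1 was at or near 0 in every library. Thus 2 of 9 tested genes were called higher and 0 lower, against 0.362% of all rows called higher and 0.312% called lower. For 3 of the 9 genes, all 3 sedanolide libraries lay above all 3 control libraries, whereas 8.69% of all rows lay entirely above and 9.66% entirely below. The median log2 fold change was 0.41 over the 9 genes and 0.0057 over all rows tested, and 0.20 and 0.0085 in the fit that includes the side.

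**Figure D1:**
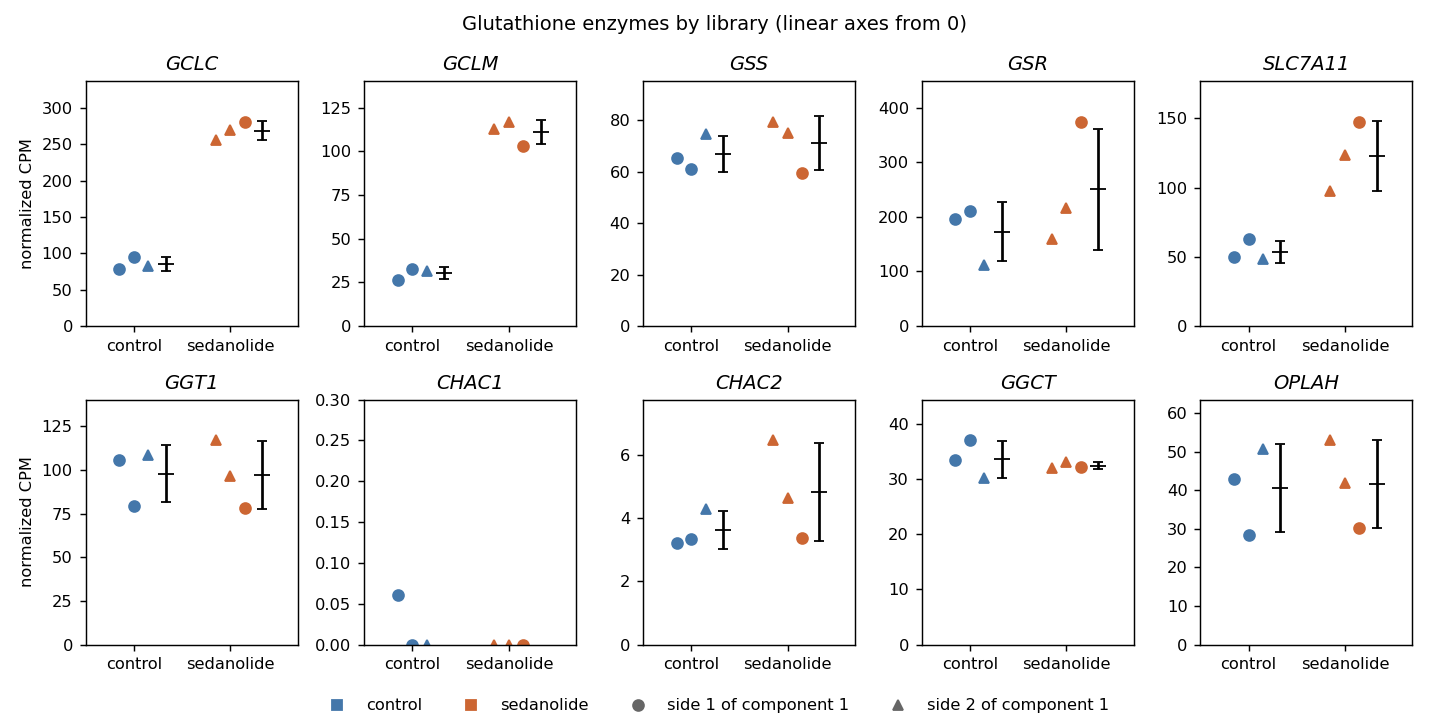
TMM-normalized CPM (vertical axes, linear from 0, one scale per gene) of the 10 glutathione genes in 3 control and 3 sedanolide libraries, with circles for side 1 and triangles for side 2 of component 1, and bars for mean ± SD except for CHAC1, which was not tested. The 3 sedanolide libraries lie above all control libraries for GCLC, GCLM and SLC7A11, and the conditions overlap for the other genes.

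GCLC (ENSG00000001084, chromosome 6 of GRCh38, 53497341 to 53616970, minus strand) holds the active site of the ligase. Its level was 78.1, 95.4 and 82.1 CPM in control 1 to 3 and 255, 270.3 and 281 CPM in sedanolide 1 to 3. The lowest sedanolide library was far above the highest control library, and the libraries of each condition lay close together on either side of component 1. The mean rose from 85.2 ± 9.07 to 269 ± 12.8 CPM (SD, n = 3), giving a log2 fold change of 1.66 (standard error, SE, 0.126, 95% interval 1.36 to 1.95, adjusted p = 0.00469, quasi-likelihood test of edgeR, Benjamini-Hochberg adjusted). The log2 fold change was 1.7 within side 1 and 1.68 within side 2.

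GCLM (ENSG00000023909, chromosome 1, 93885199 to 93909456, minus strand) encodes the modifier subunit, which lowers the concentration of glutamate that the ligase needs and weakens its inhibition by glutathione. Its level was 26.5, 32.5 and 31.7 CPM in control 1 to 3 and 113, 117 and 103 CPM in sedanolide 1 to 3. Here too the conditions were well apart, and no library of either condition stood away from the other 2. The mean rose from 30.3 ± 3.25 to 111 ± 6.96 CPM (SD, n = 3), giving a log2 fold change of 1.87 (SE 0.129, 95% interval 1.57 to 2.18, adjusted p = 0.00324, edgeR). Within side 1 and side 2 it was 1.81 and 1.85. Both subunits were called in 14 of 17 alternative fits and had an unadjusted p-value under 0.05 in 17 of 17. Among the fits that left out 1 library, both missed the FDR threshold without control 1 (adjusted p = 0.113 for GCLC and 0.0634 for GCLM) and without sedanolide 2 (0.0899 and 0.0766, edgeR), although the log2 fold changes stayed within 1.59 to 1.75 for GCLC and 1.78 to 1.97 for GCLM in all alternatives.

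The log2 ratio of GCLM to GCLC CPM was -1.56, -1.55 and -1.37 in control 1 to 3 and -1.18, -1.21 and -1.44 in sedanolide 1 to 3. The ranges overlapped, since the ratio of sedanolide 3 lay below that of control 3. The ratio was 0.22 higher with sedanolide (exact permutation test, two-sided, p = 0.2, adjusted p = 0.4 over 2 ratios, smallest possible p = 0.1), so that a change in the proportion of the subunits was not resolved. From TPM, which are normalized for transcript length, the difference was 0.38 (exact permutation test, two-sided, p = 0.3).

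The promoter windows of both subunits are shown because their mRNAs rose together. The windows were taken from RefSeq (GRCh38.p14) and hold 250 bases before and 50 bases after the transcription start, 5′ to 3′ on the strand of the gene, at chr6:53545052-53545351 (minus strand) for GCLC and chr1:93909381-93909680 (minus strand) for GCLM. Of the 10 genes, 5 had an entry. Capitals mark matches, on either strand, to the core of the ARE that NRF2 and small MAF proteins bind, spelled TGACNNNGC, to an ATF4 element, TGATGNAA, and to an AP-1 element, TGANTCA.
GCLC: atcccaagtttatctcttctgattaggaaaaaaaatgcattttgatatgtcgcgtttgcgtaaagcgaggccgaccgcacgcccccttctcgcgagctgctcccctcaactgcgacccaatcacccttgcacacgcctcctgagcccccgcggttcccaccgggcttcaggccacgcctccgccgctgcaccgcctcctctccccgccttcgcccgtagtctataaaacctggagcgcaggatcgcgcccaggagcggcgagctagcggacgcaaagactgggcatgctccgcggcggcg
GCLM: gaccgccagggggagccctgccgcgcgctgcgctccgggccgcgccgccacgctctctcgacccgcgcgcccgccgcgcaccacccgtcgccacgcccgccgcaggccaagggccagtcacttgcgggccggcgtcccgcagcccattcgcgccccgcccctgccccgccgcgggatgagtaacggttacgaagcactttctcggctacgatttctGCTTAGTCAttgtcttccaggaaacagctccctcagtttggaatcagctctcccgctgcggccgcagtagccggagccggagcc
The GCLM window held 1 ARE core, on the opposite strand and therefore read as GCTTAGTCA, at positions -34 to -26 from the start. GGT1, whose log2 fold change was -0.01, also had an ARE core, GCTGGGTCA at positions -29 to -21, in the second of its 2 RefSeq windows (chr22:24602943-24603242, plus strand). The GCLC window held none of the 3 motifs, which says only that these letters are not in this stretch. The ARE core was found in 13.3% of 34943 RefSeq promoter windows of the same length, the ATF4 element in 3.62% and the AP-1 element in 7.72%.

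The genes whose pattern over the 6 libraries came nearest to that of each subunit were found by the root mean square distance between log2 CPM values centred on each gene's mean. The nearest to GCLC were TXNRD1, the thioredoxin reductase, at 0.1001, FOS, a subunit of AP-1, at 0.139, and GCLM itself at 0.149. The nearest to GCLM were BEND6 at 0.129, ABCC3, an exporter of organic anion conjugates, at 0.139, and GCLC at 0.149. Each subunit was thus the gene ranked 3 for the other among all rows tested. The log2 fold changes were 1.49 for TXNRD1, 1.55 for FOS, 2.08 for BEND6 and 1.80 for ABCC3. The distance spans both conditions, so that for genes with large differences it partly measures how alike their log2 fold changes are. Shared regulation was not tested.

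SLC7A11 (ENSG00000151012, chromosome 4, 138164097 to 138242349, minus strand) is the light chain of the antiporter that takes up cystine in exchange for glutamate. Its level was 50.1, 62.8 and 48.2 CPM in control 1 to 3 and 97.3, 123 and 147 CPM in sedanolide 1 to 3. All sedanolide libraries were above all control libraries, and sedanolide 3 was the highest. The mean was 53.7 ± 7.96 CPM without and 123 ± 25.1 CPM with sedanolide (SD, n = 3), giving a log2 fold change of 1.19 (SE 0.188, 95% interval 0.75 to 1.64, adjusted p = 0.0513, edgeR). It was 1.39 within side 1 and 1.18 within side 2. SLC7A11 was past both thresholds in 6 of 17 alternative fits, including DESeq2 (adjusted p = 8.38e-06), limma-voom (0.0484) and edgeR with a side term (0.00131), and its unadjusted p-value was under 0.05 in 17 of 17. DESeq2 called 0.922% of all rows higher and 1.4% lower, more rows than edgeR did. The fit without sedanolide 3 also brought SLC7A11 past the FDR threshold (adjusted p = 0.0435, edgeR).

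The heavy chain SLC3A2, which carries SLC7A11 and other amino acid transporters to the cell surface, had 110.1, 104 and 148 CPM in control 1 to 3 and 271, 223 and 168 CPM in sedanolide 1 to 3. These groups did not overlap either, but here sedanolide 3 was the lowest of the treated libraries. The log2 fold change was 0.87 (SE 0.217, adjusted p = 0.181, edgeR). The log2 ratio of SLC7A11 to SLC3A2 CPM was -1.14, -0.72 and -1.62 in control 1 to 3 and -1.48, -0.86 and -0.19 in sedanolide 1 to 3. The ratio ranged widely in each condition, and the difference of 0.32 was not resolved (exact permutation test, two-sided, p = 0.5, adjusted p = 0.5 over 2 ratios). Without sedanolide 3 the difference was -0.0071.

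GSS (ENSG00000100983, chromosome 20, 34928432 to 34956027, minus strand) completes the tripeptide. Its level was 65.4, 61.1 and 74.8 CPM in control 1 to 3 and 79.5, 75.2 and 59.5 CPM in sedanolide 1 to 3. The highest and the lowest libraries were both treated, and the conditions overlapped. The mean was 67.1 ± 6.99 CPM without and 71.4 ± 10.5 CPM with sedanolide (SD, n = 3), and the 95% interval of the log2 fold change was -0.26 to 0.44 (adjusted p = 0.842, edgeR). An increase of the size measured for GCLC or GCLM lies outside this interval.

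GSR (ENSG00000104687, chromosome 8, 30678066 to 30727846, minus strand) uses NADPH to reduce oxidized glutathione. Its level was 196, 211 and 111 CPM in control 1 to 3 and 159.8, 216 and 374 CPM in sedanolide 1 to 3. The conditions overlapped, and in each condition the libraries of side 1 were above those of side 2. The mean was 173 ± 53.9 CPM without and 250.03 ± 111 CPM with sedanolide (SD, n = 3), giving a log2 fold change of 0.53 (SE 0.359, 95% interval -0.31 to 1.38, adjusted p = 0.609, edgeR). Within side 1 it was 0.88 and within side 2 it was 0.74, and in the fit that includes the side it was 0.82 (SE 0.123, adjusted p = 0.00787, edgeR). GSR was called once the side was included, in a fit that called 1.07% of all rows higher and 1.63% lower. In that fit, 4 of the 9 genes were called higher (GCLC, GCLM, SLC7A11 and GSR) and 0 lower. The side was taken from the expression of these same libraries, so that its adjusted p-values are not independent support. Sedanolide 3 was the only treated library of side 1, and control 3 the only control library of side 2. Without sedanolide 3, the log2 fold change of GSR was 0.12.

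**Figure D2:**
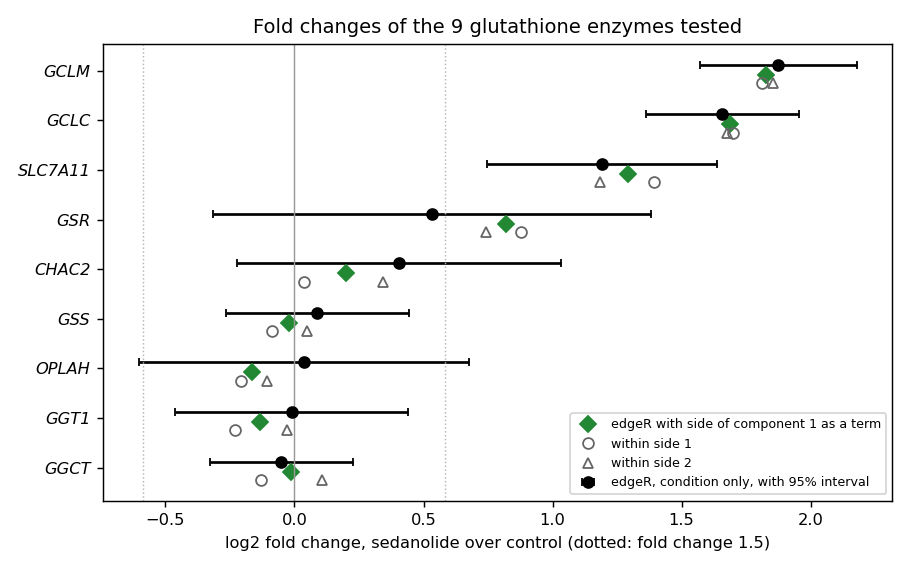
Log2 fold changes, sedanolide over control (horizontal axis, dotted lines at a fold change of 1.5), of the 9 genes tested, with 95% intervals from edgeR (black), the fit that includes the side of component 1 (green) and the values within side 1 (open circles) and side 2 (open triangles). For GCLC, GCLM and SLC7A11 the 4 estimates lie close together, whereas for GSR the 3 estimates that take the side into account (0.74 to 0.88) are above the estimate of 0.53 that does not.

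Among the enzymes of breakdown, GGT1 (ENSG00000100031, chromosome 22, 24594811 to 24629005, plus strand) cleaves the γ-glutamyl bond of glutathione outside the cell. Its level was 106, 79.5 and 109 CPM in control 1 to 3 and 117, 96.4 and 78.3 CPM in sedanolide 1 to 3. The libraries of both conditions spanned nearly the same range. The mean was 98.0 ± 16.1 CPM without and 97.3 ± 19.4 CPM with sedanolide (SD, n = 3), giving a log2 fold change of -0.01 (SE 0.191, 95% interval -0.46 to 0.44, adjusted p = 0.985, edgeR). The division of reads at this locus is uncertain, because a readthrough gene on the same strand (ENSG00000286070, chromosome 22, 24556007 to 24628987) shares 2472 of the 4375 exon bases of GGT1 and received 65.6% as many counts. That gene showed a log2 fold change of -0.28 (SE 0.127, adjusted p = 0.441, edgeR), and the sum of both, computed after seeing the data, had -0.12 (adjusted p = 0.806). The 9 related GGT copies and light-chain genes together had 15.02 counts over all libraries against 12196 for GGT1.

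CHAC1 (ENSG00000128965, chromosome 15, 40952962 to 40956512, plus strand), which degrades glutathione and is known as a target of ATF4 in the unfolded protein response, had 1 count in control 1 and 0 counts in each of the other 5 libraries. It was the gene of the 10 that did not pass the filter, and it was not tested. A count of 0 allows up to 3 counts, or 0.116 to 0.182 CPM in these libraries, a limit that covers counting error only. All libraries were at or under this floor, and no fold change is given.

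Its paralogue CHAC2 (ENSG00000143942, chromosome 2, 53767804 to 53775196, plus strand), which cleaves glutathione more slowly, was measured at a low level. It had 3.21, 3.35 and 4.30 CPM in control 1 to 3 and 6.45, 4.63 and 3.37 CPM in sedanolide 1 to 3, from 53, 79 and 76 counts and 120, 120 and 85 counts. Sedanolide 1 and 2 were above all control libraries, and sedanolide 3 was within their range. The mean was 3.62 ± 0.591 CPM without and 4.82 ± 1.55 CPM with sedanolide (SD, n = 3), giving a log2 fold change of 0.41 (SE 0.266, 95% interval -0.22 to 1.03, adjusted p = 0.598, edgeR). It was 0.039 within side 1 and 0.34 within side 2.

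The RefSeq window of CHAC1 (chr15:40953221-40953520, plus strand, GRCh38.p14) is shown for its ATF4 element.
CHAC1: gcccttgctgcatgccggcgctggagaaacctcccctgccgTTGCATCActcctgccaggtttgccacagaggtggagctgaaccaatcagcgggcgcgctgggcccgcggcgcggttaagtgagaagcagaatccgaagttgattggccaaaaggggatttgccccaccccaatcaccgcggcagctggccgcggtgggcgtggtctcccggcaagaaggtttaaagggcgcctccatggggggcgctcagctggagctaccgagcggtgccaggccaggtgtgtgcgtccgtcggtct
It held TTGCATCA, the ATF4 element read from the opposite strand, at positions -209 to -202. The window of CHAC2 (chr2:53767533-53767832, plus strand) held none of the 3 motifs.

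GGCT (ENSG00000006625, chromosome 7, 30496621 to 30504841, minus strand) converts γ-glutamyl amino acids to pyroglutamate. Its level was 33.4, 37.0 and 30.2 CPM in control 1 to 3 and 32.0, 33.1 and 32.1 CPM in sedanolide 1 to 3. All treated libraries lay within the range of control libraries. The mean was 33.5 ± 3.40 CPM without and 32.4 ± 0.585 CPM with sedanolide (SD, n = 3), and the 95% interval of the log2 fold change was -0.33 to 0.23 (adjusted p = 0.894, edgeR). OPLAH (ENSG00000178814, chromosome 8, 144051266 to 144063965, minus strand) opens pyroglutamate to glutamate. Its level was 42.8, 28.3 and 50.6 CPM in control 1 to 3 and 52.9, 41.7 and 30.2 CPM in sedanolide 1 to 3. The libraries of OPLAH spread over a similar range in both conditions, and in each condition side 2 was above side 1. The mean was 40.6 ± 11.3 CPM without and 41.6 ± 11.4 CPM with sedanolide (SD, n = 3), giving a log2 fold change of 0.04 (SE 0.271, 95% interval -0.60 to 0.67, adjusted p = 0.963, edgeR), whose sign turned when counts were scaled by library size only.

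To compare the genes with one another, the deposited log2(TPM + 1) values, which are normalized for transcript length, were converted to TPM. This table held 9 of the 10 genes and not CHAC1. In control cells the mean order was GGT1 (108 TPM), GSR (97.5 TPM), GCLC (62.8 TPM), GSS (59.4 TPM), GGCT (52.3 TPM), OPLAH (16.7 TPM), GCLM (11.9 TPM), SLC7A11 (8.16 TPM) and CHAC2 (4.64 TPM). Neighbours from GGT1 to GGCT overlapped between libraries, and those from GGCT to CHAC2 did not. GCLM mRNA, at 11.3 to 12.8 TPM, was thus well below GCLC mRNA, at 52.9 to 79.7 TPM, in control libraries.

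In sedanolide-treated cells GCLC stood at the top of the order, at 189 ± 21.8 TPM, followed by GSR (134.9 TPM), GGT1 (99.4 TPM) and GSS (57.7 TPM). GCLC and GSR overlapped, as did GSR and GGT1. GCLM, at 47.0 ± 5.88 TPM (SD, n = 3), reached the range of GGCT (46.7 TPM), and SLC7A11 (17.3 TPM) that of OPLAH (15.8 TPM), while CHAC2 remained the lowest at 5.65 TPM. GCLM thereby moved past OPLAH, which it had been below in every control library.

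**Figure D3:**
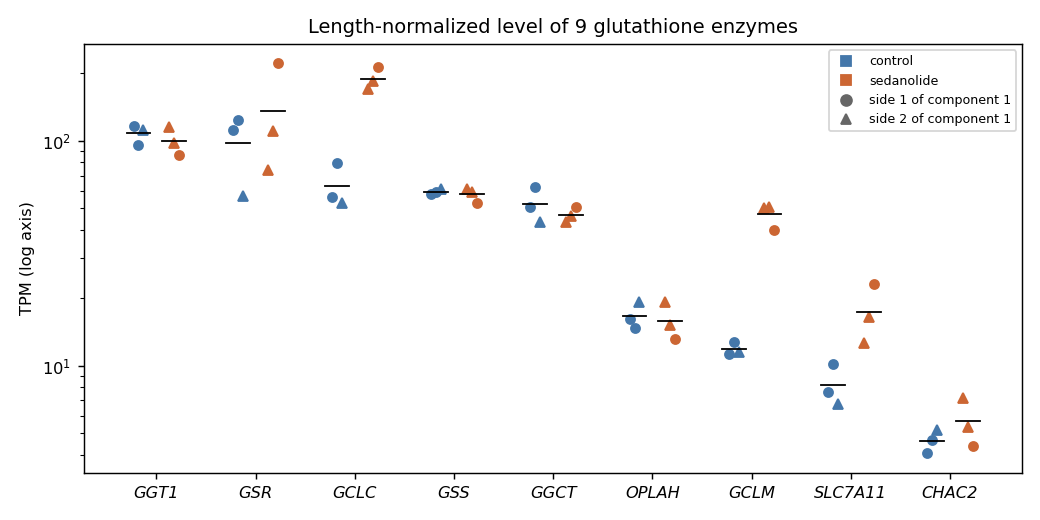
TPM on a log axis of the 9 genes in the length-normalized table, in the order of their control means, with blue for control and orange for sedanolide libraries, circles and triangles for side 1 and 2 of component 1, and lines for the means. The orange points are apart from and above the blue points for GCLC, GCLM and SLC7A11, and the widest spread among treated libraries is that of GSR, from 73.7 to 220.5 TPM.

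Other genes of the pathway, chosen for their roles but with earlier results of these data known, were examined in 4 lists. These hold 47 genes, 41 of them tested. None was called by edgeR, although 6 genes were higher and 1 was lower at an unadjusted p-value under 0.05, where 5.35% of all rows were higher and 6.57% lower. DESeq2 and edgeR with a side term each called 1 (SLC3A2), and limma-voom called 0. Among all rows, 0.362% were called higher and 0.312% lower by edgeR. The shares were 0.922% and 1.4% with DESeq2, and 1.07% and 1.63% with the side term. With shares this low, counts of 0 or 1 in 41 genes do not set the lists apart from all rows. Among the 41 genes, 24 had a positive and 17 a negative log2 fold change. The median was 0.051, or 0.034 in the fit that includes the side.

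The list of precursor supply covers transporters and enzymes for cysteine, methionine, glutamate and glycine. Of its 14 genes tested, 10 had a positive log2 fold change, 5 had an unadjusted p-value under 0.05, all with higher levels, and for the same number the sedanolide libraries lay entirely above the control libraries, against 5.35% and 8.69% of all rows. The median was 0.11, and 0.18 in the fit that includes the side. Besides SLC3A2, the glutamine transporter SLC1A5 had the largest difference, with 302 ± 54.1 CPM without and 472 ± 85.3 CPM with sedanolide (SD, n = 3), giving a log2 fold change of 0.64 (SE 0.192, adjusted p = 0.254, edgeR) without overlap.

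Of the 9 tested genes of extracellular and peptide breakdown, 5 had positive and 4 negative log2 fold changes, and the median was 0.14. GGT6, a low-expressed relative of GGT1, had 1.15 ± 0.413 and 1.93 ± 0.611 CPM (SD, n = 3; log2 fold change 0.76, SE 0.366, adjusted p = 0.473, edgeR), with overlap. The leucine aminopeptidase LAP3, which can split the dipeptide left by GGT1, had 91.5 ± 2.30 and 109 ± 8.25 CPM (log2 fold change 0.25, SE 0.111, adjusted p = 0.433, edgeR), without overlap. Among 11 tested genes of enzymes that use glutathione and of its mitochondrial carriers (SLC25A39 and SLC25A40), 8 had positive and 3 negative log2 fold changes, with a median of 0.15, or 0.042 in the fit that includes the side. The largest were those of the glutaredoxins GLRX3 (0.48, SE 0.240, adjusted p = 0.491) and GLRX (0.29, SE 0.112, adjusted p = 0.372, edgeR), and GLRX was without overlap, from 105 ± 2.90 to 128 ± 9.88 CPM (SD, n = 3).

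The list of cysteine breakdown covers enzymes that break down cysteine and sulfide. Of 7 genes tested, 6 had a negative log2 fold change, as did 6949 of 14104 rows, and the median was -0.23. At an unadjusted p-value under 0.05 (edgeR), 1 of the 7 was lower, as were 6.57% of all rows. The sedanolide libraries lay entirely below the control libraries for 3 of them, as they did for 9.66% of all rows. CDO1, the dioxygenase that oxidizes cysteine, had 4.96 ± 0.381 CPM without and 3.98 ± 0.566 CPM with sedanolide (SD, n = 3). Its log2 fold change was -0.32 (SE 0.171, adjusted p = 0.512, edgeR). The conditions barely separated for CDO1, with 4.54 CPM in control 1 and 4.36 CPM in sedanolide 2. CSAD, the decarboxylase on the way to taurine, had 2.23 ± 0.841 and 1.54 ± 0.268 CPM and a log2 fold change of -0.54 (SE 0.319, adjusted p = 0.562, edgeR), with overlap.

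SLC7A11 and CHAC1 are known targets of ATF4, the transcription factor of the amino acid and unfolded protein responses, and 16 other genes of that program were examined. edgeR called 0 of 16, with 3 higher and 2 lower at an unadjusted p-value under 0.05 (5.35% and 6.57% of all rows), and the median log2 fold change was 0.19. DESeq2 called NUPR1 lower, limma-voom called 0, and edgeR with a side term called ASNS and SLC7A5 higher and NUPR1 lower. Of all rows, edgeR called 0.362% higher and 0.312% lower, DESeq2 0.922% and 1.4%, and edgeR with a side term 1.07% and 1.63%. NUPR1, a small stress-induced chromatin protein, had 19.0, 21.4 and 14.1 CPM in control 1 to 3 and 5.97, 7.18 and 11.3 CPM in sedanolide 1 to 3, with no overlap (log2 fold change -1.15, SE 0.270, adjusted p = 0.159, edgeR). ASNS, asparagine synthetase, had 54.0, 41.2 and 82.1 CPM in control 1 to 3 and 142, 111 and 71.0 CPM in sedanolide 1 to 3. Control 3 was above sedanolide 3 for this gene, and the log2 fold change was 0.87 (SE 0.323, adjusted p = 0.358, edgeR). ATF4 itself showed a log2 fold change of 0.21 (adjusted p = 0.588).

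GCLC, GCLM, SLC7A11 and GSR are known targets of NRF2. The mRNA of NRF2 was examined beside them, with those of 6 other genes, KEAP1 and factors that share its sites. edgeR, DESeq2 and limma-voom called 0 of 7, with 1, 2 and 1 at an unadjusted p-value under 0.05. The 1 gene of edgeR was higher, where 5.35% of all rows were higher and 6.57% lower. With a side term edgeR also called 0, with 3 at an unadjusted p-value under 0.05. Of all rows, edgeR called 0.362% higher and 0.312% lower, DESeq2 0.922% and 1.4%, and edgeR with a side term 1.07% and 1.63%. NFE2L2, which encodes NRF2, showed a log2 fold change of -0.09 (adjusted p = 0.842, edgeR). These libraries do not measure the amount of NRF2 protein or its place in the cell. KEAP1, the adaptor through which NRF2 is degraded, had 80.5 ± 12.2 CPM without and 126 ± 30.6 CPM with sedanolide (SD, n = 3). Its log2 fold change was 0.65 (SE 0.206, adjusted p = 0.278, edgeR), and 0.48 in the fit that includes the side (adjusted p = 0.0477, edgeR). In CPM the conditions barely separated, with 94.3 in control 3 and 94.8 in sedanolide 3. In TPM they overlapped, since control 3 (67.3 TPM) was above sedanolide 3 (63.3 TPM). NFE2L1, a relative of NRF2, showed a log2 fold change of -0.38 (SE 0.293, adjusted p = 0.650, edgeR), with overlap.

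**Figure D4:**
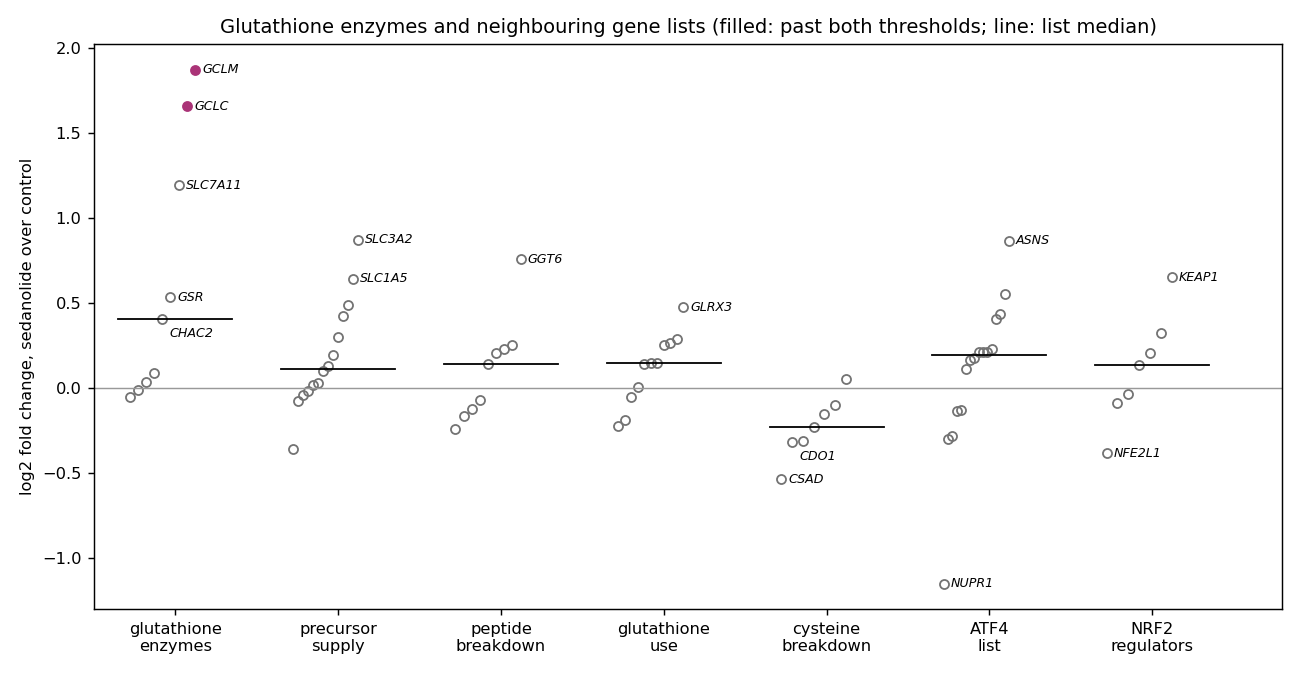
Log2 fold changes, sedanolide over control (vertical axis), of the tested glutathione genes and of the neighbouring gene lists, with each point a gene, filled points past both thresholds and lines at list medians. The filled points are GCLM at 1.87 and GCLC at 1.66, no gene of the other lists is filled, and the cysteine breakdown list is the one with a median below 0.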

How the data were processed

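Reads were passed by the authors through FastQC and Trimmomatic, mapped by STAR on GRCh38 and assigned to genes by RSEM (versions and annotation release not given in the sources used here). Libraries of captured mRNA were directional. The authors deposited expected counts, not normalized, of which 7.90% to 8.59% per library were not whole, and a second table of log2 values of TPM + 1 for 11006 rows, whose filter is not stated. Identifiers of 61369 genes were found in GENCODE 44, which gave the positions.

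Counts were rounded, filtered with filterByExpr, normalized by TMM and tested with the robust quasi-likelihood test of edgeR 4.0.16 in R 4.3.3, with condition as the only term. The authors' own test was DESeq2, which was run here (1.42.0) as an alternative with limma 3.58.1. Standard errors were derived from the F statistic. All genes of the set are named, together with the called genes and the 2 largest differences of each other list, and the 3 nearest patterns of GCLC and GCLM. SLC7A5, ATF4, NFE2L2, SLC25A39, SLC25A40 and the marker genes were named after their values were seen. The members, lists and alternatives were chosen with earlier results of these data known. The fit was also run on simulated counts, drawn for each gene and library independently and without the sides of component 1. That run therefore cannot show how calls behave under the difference between the sides. Counts of libraries within a condition differed by more than sampling noise. All 6 libraries entered the fit reported.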

Additional observations from a re-analysis of the deposited data

How the results depend on the processing

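The number of rows past both thresholds, 95 in the fit reported, was 328 with DESeq2, 158 with all rows of at least 1 count and 381 with a term for the side of component 1, and ranged from 0 to 136 when 1 library was left out. It was 0 without control 1 or sedanolide 2 (1067 and 889 rows at an unadjusted p-value under 0.05, edgeR). Of the glutathione genes, 2 in the fit reported, 0 to 3 were called without 1 library and 4 with the side term. Of the pathway genes, 0 in the fit reported, DESeq2 and the side term each called 1, and of the ATF4 list DESeq2 called 1, the side term 3, and the fits without 1 library 0 to 1.

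GCLC, GCLM, SLC7A11, GSR and CHAC2 kept their direction in all 17 alternatives. The direction of the other genes, none of which was called, turned in some. GSS had -0.020 with the side term, -0.043 from log2(TPM + 1) and -0.044 from log2(TPM + 0.1). GGT1 had 0.0034 with all rows of at least 1 count, and 0.038 to 0.12 without control 1, control 3 (0.071) or sedanolide 3. GGCT had 0.026 without control 2, in a range from -0.12 over all fits without 1 library. OPLAH had -0.0077 with library size only, -0.16 with the side term, -0.17 without control 2 and without sedanolide 1, where the fits without 1 library reached 0.23, and -0.081 and -0.086 from the TPM table with 1 and 0.1 added. The difference in the SLC7A11 to SLC3A2 ratio ranged from -0.0071 to 0.64 when 1 library was left out, and that in the GCLM to GCLC ratio from 0.17 to 0.30 (0.38 from the TPM table). The cause of these shifts was not tested. A ratio of CHAC1 to CHAC2 was not run, because CHAC1 had 1 count in all.

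The replicate numbers gave no sign of pairing. Deviations from the condition means correlated at -0.13, -0.30 and -0.73 for libraries of the same number. The highest values were for libraries of the same side, 0.68 for control 2 with sedanolide 3 and 0.65 for control 3 with sedanolide 1. A pairing hidden by the sides therefore cannot be seen in these correlations. With a replicate block, 0 rows were called (772 at an unadjusted p-value under 0.05, edgeR), and the adjusted p was 0.321 for GCLC and 0.302 for GCLM at log2 fold changes of 1.66 and 1.88. The ratio differences under the block were 0.22 and 0.32. With 3 libraries per condition and a biological coefficient of variation of 0.199, intervals for CHAC2, GSR and OPLAH reach beyond a fold change of 1.5.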
